A study of Mus musculus with 3 samples.

Results

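Small resting pre-B cells are B lineage precursors that have stopped dividing and are rearranging their immunoglobulin light-chain genes. They were sought here among cells that single-cell RNA sequencing recovered from mouse intervertebral discs. A barcode counted as a small pre-B cell when it had at least 1 unique molecular identifier (UMI, a counted transcript molecule) of Cd79a and of Cd79b. These genes encode the Igα and Igβ signalling chains of the B cell and pre-B cell receptors. It also needed a UMI of Rag1, Arl5c or Fcrla and 0 UMIs of Dntt, Ms4a1, Mki67, Top2a, Birc5 and Ccna2. The members were thus chosen by measured counts of these 11 genes. Among 26898 kept barcodes, those in which 500 or more genes and no more than 15% mitochondrial UMIs were seen, 1957 met the rule. They numbered 330 of 5732 in library 1, 717 of 10792 in library 2 and 910 of 10374 in library 3.

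The mice were shh-cre:R26R-tdTomato animals at postnatal day 30 with no treatment, and all libraries share this genotype. Cre driven by the Shh gene switches on the tdTomato reporter, which then stays on in all progeny of that cell. Discs were freed by cutting through the bony endplates of the vertebrae, digested with collagenase and enriched for tdTomato by sorting, and the bone cut through holds marrow, where B cell precursors live. Each of the 3 libraries pools cells of litter-matched animals and was a separate sequencing batch by the labels, so no value belongs to a single animal. The p-values measure only how the difference between classes within a library varies from pool to pool. There is no treated group, and the comparisons are between classes of barcodes within the same libraries.

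In the marrow, early B cell development runs from pro-B cells, which join the segments of the heavy-chain gene, through large cycling pre-B cells to small resting pre-B cells. Large pre-B cells carry the pre-B cell receptor, in which the surrogate light chain, made of λ5 (Igll1) and VpreB (Vpreb1, Vpreb2), stands in for the light chain that has yet to be made. Signals of that receptor and of interleukin 7 drive proliferation. As they wane, surrogate light-chain genes are shut off, the RAG recombinase is expressed again, and the κ locus usually rearranges before the λ locus.

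The sequences upstream of 4 receptor-chain genes are given because these genes parted in the comparison with cycling pre-B cells below. There Igll1, Vpreb1 and Vpreb2 were lower in small pre-B cells, while Vpreb3, a related gene, was higher. In the other class comparisons Igll1, Vpreb1 and Vpreb3 moved the same way, higher than in B cells with Ms4a1 and lower than in pro-B cells with Dntt. Each is 250 bases ending just before the transcription start in RefSeq (GRCm38.p6), read 5′ to 3′ on the gene's strand. Capitals mark the E-box CAGGTG, or CACCTG where it lies on the opposite strand, a motif bound by E2A proteins. Igll1 (chr16:16863986-16864235, minus strand) had it 8 bases before the start, Vpreb1 (chr16:16869256-16869505, minus strand) 88 bases before, and Vpreb2 (chr16:17980315-17980564, plus strand) 232 bases before. The bases around the motif are nearly the same in Vpreb1 and Vpreb2, so the matches of these paralogues are not independent of each other. Vpreb3 (chr10:75948050-75948299, plus strand) had none in this window.
Igll1: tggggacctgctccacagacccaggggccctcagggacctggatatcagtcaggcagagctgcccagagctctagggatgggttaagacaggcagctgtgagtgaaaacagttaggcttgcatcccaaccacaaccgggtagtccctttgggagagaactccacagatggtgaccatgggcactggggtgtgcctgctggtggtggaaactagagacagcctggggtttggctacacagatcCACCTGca
Vpreb1: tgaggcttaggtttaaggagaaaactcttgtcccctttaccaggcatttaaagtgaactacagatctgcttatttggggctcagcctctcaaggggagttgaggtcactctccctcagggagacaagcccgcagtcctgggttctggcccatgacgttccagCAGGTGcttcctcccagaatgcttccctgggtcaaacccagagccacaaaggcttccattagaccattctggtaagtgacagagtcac
Vpreb2: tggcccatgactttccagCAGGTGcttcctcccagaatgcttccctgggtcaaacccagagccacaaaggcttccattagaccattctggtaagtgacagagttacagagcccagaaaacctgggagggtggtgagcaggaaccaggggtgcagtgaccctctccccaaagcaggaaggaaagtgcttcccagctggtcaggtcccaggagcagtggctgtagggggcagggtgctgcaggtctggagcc
Vpreb3: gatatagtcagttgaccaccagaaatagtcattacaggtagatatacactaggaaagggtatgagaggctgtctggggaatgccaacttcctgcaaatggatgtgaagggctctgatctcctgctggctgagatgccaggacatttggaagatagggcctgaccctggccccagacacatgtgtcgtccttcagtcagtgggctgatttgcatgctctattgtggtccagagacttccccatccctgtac
Among 32851 mouse promoter windows of this length, 17.2% held CAGGTG on either strand. The motif CCCNNGGG, the core of the Ebf1 consensus and its own reverse complement, was present only upstream of Igll1 of these 4 and in 11.8% of all windows. No motif overlapped the other. A match describes the letters and not a bound site, and both motifs were chosen with the expression results known.

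Small pre-B cells made up 5.76% of kept barcodes in library 1 (exact Clopper-Pearson 95% interval 5.17 to 6.39), 6.64% in library 2 (6.18 to 7.13) and 8.77% in library 3 (8.23 to 9.33), a mean of 7.06% ± 1.55 (SD, n = 3 libraries). The intervals cover counting error only, and those of libraries 1 and 2 overlap while that of library 3 stands above both. With at least 1000 genes asked of a barcode the mean share was 5.15%. Most barcodes with both Cd79a and Cd79b were not small pre-B cells: they took 32.3%, 24.1% and 24.5% of 1022, 2978 and 3717 such barcodes in libraries 1, 2 and 3. For comparison, 2097 Cd79a and Cd79b barcodes without Dntt and Ms4a1 had a UMI of 2 or more of the 4 cycle genes Mki67, Top2a, Birc5 and Ccna2 and are called cycling pre-B here. A further 1439 had Ms4a1, which encodes CD20, without Dntt or the cycle genes, and are called Ms4a1+ B. The 495 with Dntt, the terminal transferase of heavy-chain joining, without Ms4a1 or the cycle genes are called Dntt+ pro-B.

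**Figure D1:**
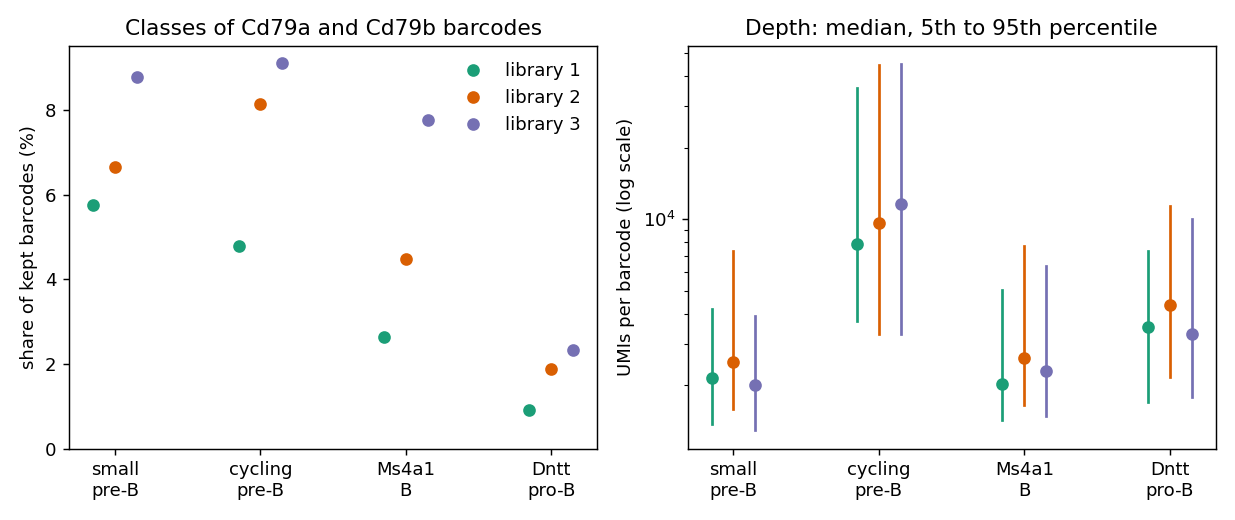
The left panel gives each class as a share of kept barcodes (%) and the right panel UMIs per barcode on a log scale, as the median with the 5th to 95th percentile, for small pre-B, cycling pre-B, Ms4a1+ B and Dntt+ pro-B barcodes, 1 colour per library. Small pre-B barcodes had a median of 2019 to 2513 UMIs by library, and library 3 had the largest share of all 4 classes.

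The median small pre-B barcode held 2226 ± 257 UMIs and 1063 ± 67.2 genes (SD over library medians, n = 3), against 9708 ± 1835 UMIs and 2727 ± 195 genes in cycling pre-B, 2312 ± 288 UMIs in Ms4a1+ B and 3718 ± 555 UMIs in Dntt+ pro-B barcodes. Depth also enters the choice of classes, since 0 UMIs of the 6 barred genes is easier to meet in a shallow barcode. UMIs of 2 or more cycle genes are easier to meet in a deep one. How far this set the depths was not tested. Cell size was not measured. Every level below is therefore given as UMIs per 1000000 UMIs of a class's sum in a library (CPM), which does not correct for depth per cell, and shares of cells are also given with each cell thinned to 1000 UMIs. A lower share of cells and less RNA per cell can both lower such a sum. The kit counts 3′ ends, so levels are compared between classes and not between genes.

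The genes of the rule are a description, since they chose the cells. Cd79a stood at 2434, 3182 and 4572 CPM in libraries 1, 2 and 3, Cd79b at 1968, 2306 and 2905 CPM, Arl5c at 868, 1076 and 1211 CPM, Fcrla at 633, 813 and 1006 CPM and Rag1, the catalytic recombinase subunit, at 311, 199.8 and 170.0 CPM. A Rag1 UMI was present in 39.5% ± 7.64 of small pre-B barcodes, an Arl5c UMI in 88.6% ± 3.32 and an Fcrla UMI in 80.7% ± 5.83 (SD, n = 3), against 0.149% ± 0.131, 4.58% ± 2.55 and 0.702% ± 0.194 in neutrophil barcodes, which should lack all 3 and had a median of 10230 UMIs. Most members thus entered through Arl5c or Fcrla, and 30, 39 and 73 members in libraries 1, 2 and 3 entered through Fcrla alone. The other B classes held these genes too. In cycling pre-B, Ms4a1+ B and Dntt+ pro-B barcodes Rag1 was found in 14.8% ± 5.21, 6.75% ± 4.70 and 53.7% ± 6.47. In that order Arl5c was in 70.6% ± 6.04, 45.7% ± 3.73 and 84.0% ± 4.47. Fcrla was in 80.1% ± 4.23, 67.5% ± 11.5 and 11.5% ± 1.80. After thinning Fcrla was in 55.5% ± 8.11 of small pre-B and 31.5% ± 3.41 of cycling pre-B barcodes. Just inside the rule, 20 members had a single UMI of Cd79a, 60 a single UMI of Cd79b and 128 a single UMI of Rag1, Arl5c and Fcrla together. Just outside it, 474 barcodes failed by exactly 1 UMI of a barred gene, 211 of them Ms4a1, 81 Mki67, 66 Birc5, 56 Top2a, 40 Dntt and 20 Ccna2.

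Genes the rule did not use placed the members in the B lineage, and Ebf1, Ighm and Vpreb3 were found in most barcodes of the other B classes as well. Ebf1, a factor that sets B lineage identity, had a UMI in 99.6% ± 0.140 of small pre-B barcodes (SD, n = 3), against 6.32% ± 1.89 of neutrophil barcodes. Ighm, the μ heavy chain, was found in 99.8% ± 0.178 of small pre-B and 32.9% ± 7.55 of neutrophil barcodes. Vpreb3 was found in 98.7% ± 0.443 and 3.40% ± 1.07, and Ly6d in 86.3% ± 1.34 and 2.20% ± 0.339. In cycling pre-B, Ms4a1+ B and Dntt+ pro-B barcodes Ebf1 was found in 93.1% ± 1.40, 96.4% ± 0.848 and 98.7% ± 0.776, Ighm in 96.8% ± 1.06, 99.96% ± 0.0718 and 96.2% ± 0.798, and Vpreb3 in 93.4% ± 1.56, 88.8% ± 1.32 and 98.6% ± 0.550. Ly6d was found in 50.7% ± 5.04, 98.0% ± 0.721 and 16.4% ± 5.98 of them, and in 73.2% ± 2.34 of small pre-B, 18.9% ± 2.66 of cycling pre-B, 91.9% ± 2.29 of Ms4a1+ B and 9.53% ± 5.43 of Dntt+ pro-B barcodes after thinning. After thinning, the Ighm share was 97.0% ± 1.76 in small pre-B and 5.10% ± 1.44 in neutrophil barcodes. In cycling pre-B, Ms4a1+ B and Dntt+ pro-B barcodes it was then 77.4% ± 3.45, 97.3% ± 0.661 and 76.3% ± 4.72. In the same order, with small pre-B first, thinned Ebf1 shares were 96.4% ± 0.727, 71.3% ± 1.85, 82.6% ± 1.89 and 94.9% ± 2.47. Those of Vpreb3 were 94.8% ± 0.467, 73.8% ± 3.77, 77.2% ± 4.14 and 95.6% ± 0.944. The labelled tissue is the disc, but the 4 markers of its nucleus pulposus cells, Krt8, Krt18, Krt19 and T, summed to 274, 23.8 and 3.74 CPM in libraries 1, 2 and 3. Library 1 stood highest, and its sum was 309 CPM with the mixed barcodes described next left out. The 5 chondrocyte markers were higher, at 1286, 1467 and 129 CPM. With mixed barcodes left out they summed to 384, 68.9 and 2.76 CPM. The T and NK cell markers summed to 21.6, 11.3 and 21 CPM, with Cd3e and Cd8a at 0, and the plasmacytoid dendritic markers to 63.6, 54.6 and 66.3 CPM, with Klk1 at 0.

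Some barcodes held RNA of another cell as well. In 88 members (11, 42 and 35 by library) the genes of 1 other-cell marker list exceeded 2% of UMIs, and their median was 5685, 9634.5 and 7626 UMIs, against 2113, 2483 and 1988 in the rest. They held 16.3% ± 6.07 of member UMIs (SD, n = 3). All 8 neutrophil markers were present in every library, and they summed to 28849, 32700.4 and 32581 CPM over all members but 4317, 2269 and 2388 CPM once these mixed barcodes, and those with 0 UMIs of Ebf1, were left out. The 7 erythroid markers summed to 549.9, 6342 and 9305 CPM over all members and 595, 1188 and 963 CPM without them, and the 5 stromal and bone markers to 79.2, 2215 and 4270.4 CPM and 83.9, 253 and 472 CPM. The 7 monocyte and macrophage markers summed to 1129, 2677 and 2333 CPM, and to 240, 203 and 325 CPM without them. The barcodes with the highest doublet scores of Scrublet were marked as doublets, their number set in advance at 0.8% per 1000 barcodes of the library. They included 82 members, among them 64 of the 88, and these doublets stay in unless said. Some results that turn on mixed barcodes are given with and without them in what follows, a choice made after the data were seen. Wherever mixed barcodes are left out of a B class, its barcodes with 0 UMIs of Ebf1 are left out too. Counts of list genes include mixed barcodes unless said, and some of these counts differ without them. No member barcode sequence occurred in more than 1 library.

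Light-chain transcripts were present in most small pre-B cells, as in Ms4a1+ B cells. Igkc, the κ constant region (chr6:70726435-70726966, plus strand), had a UMI in 91.5% ± 2.27 of members and 8.78% ± 3.49 of neutrophil barcodes (SD, n = 3), and in 87.0% ± 2.78 and 0.936% ± 0.315 after thinning. The share was 86.7% ± 4.0 in cycling pre-B, 92.3% ± 2.08 in Ms4a1+ B and 15.3% ± 1.12 in Dntt+ pro-B barcodes, and after thinning 54.5% ± 8.51 in cycling pre-B and 90.9% ± 0.982 in Ms4a1+ B barcodes. Any UMI of the λ constant regions Iglc1, Iglc2 and Iglc3 occurred in 55.7% ± 7.29 of members. At 10 or more UMIs, 52.4% ± 2.89 of members had Igkc and 15.5% ± 6.23 had λ constant regions. Among the 339 members with at least 10 λ UMIs, 128 also had at least 10 of Igkc, a mean of 39.2% ± 3.54 over libraries. Among the 1618 with fewer λ UMIs, 890 did, a mean of 54.9% ± 3.09. The first share was lower in each of the 3 libraries, at 43.3% against 53.7%, 37.2% against 58.4% and 37.2% against 52.7%. Counts of constant-region UMIs do not show which alleles are rearranged, since unrearranged loci can also be transcribed. Iglc2 and Iglc3 shared 284 of 298 aligned bases at their 3′ ends, so reads may be split between them.

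**Figure D2:**
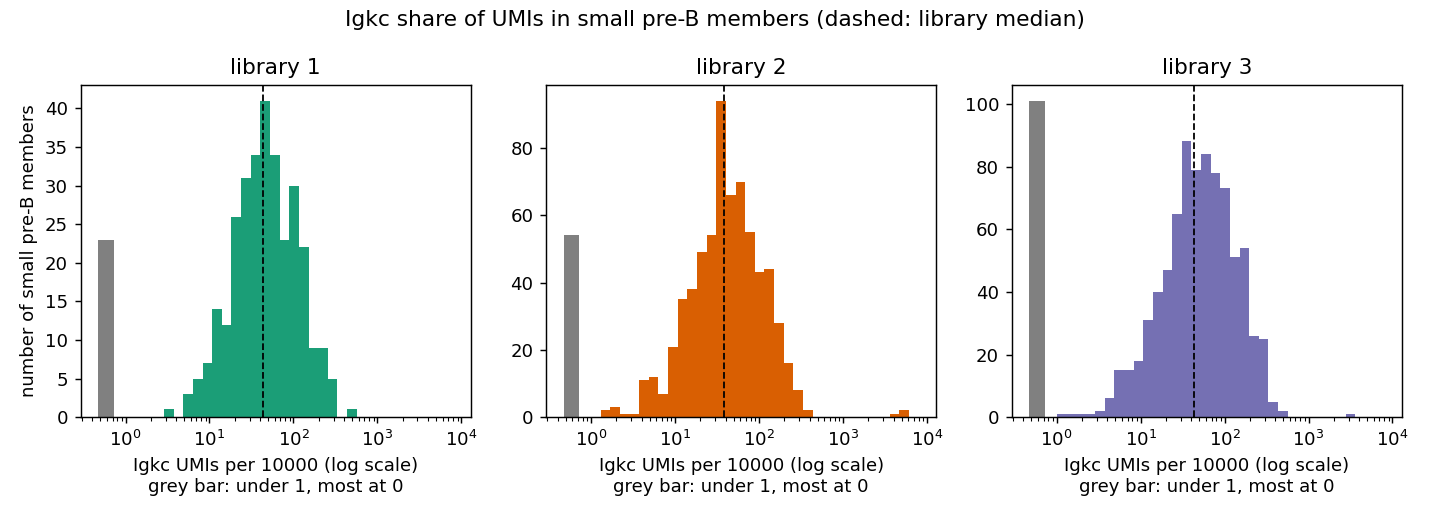
Number of small pre-B members by Igkc UMIs per 10000 UMIs of the barcode (log scale) in each library, with the grey bar for members below 1 and the dashed line at the library median. The medians were 43.6, 38.0 and 43.3 per 10000, and the values form a single broad hump around them with a separate group at or near 0 and a few members above 1000 in libraries 2 and 3.

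In 35 members neither Igkc nor Iglc1 to Iglc3 had a UMI. Of these, 24 had a UMI of Igll1, Vpreb1 or Vpreb2, in detail 2 of 7, 7 of 8 and 15 of 20 in libraries 1, 2 and 3. Of the 1922 members with a light-chain UMI, 138 did, a mean of 7.11% ± 0.270 (SD, n = 3). The share was higher without light-chain UMIs in all 3 libraries, although library 1 rests on 7 cells, and depth was not lower there, with medians of 2731, 4312 and 2057.5 UMIs without and 2144, 2511 and 2018.5 UMIs with a light-chain UMI. An exact permutation test over 3 pairs of values cannot go below p = 0.25 (two-sided), so none is given. A Cd74 UMI was present in 6 of the 35 and in 866 of the 1922.

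Against cycling pre-B barcodes, small pre-B cells had far less RNA of cell-cycle, ribosome-assembly and glycolysis genes, and more of light chains, antigen receptor signalling, NF-kB pathway and mature B surface genes. Sums per library and class were compared with edgeR's quasi-likelihood test with the library as a block, and a gene was called at a Benjamini-Hochberg adjusted p under 0.05 over all genes tested. Sizes given after "rose by", "fell by", "changed by" or "at" are log2 fold changes. The classes were cut by UMIs of Dntt, Ms4a1 and the cycle genes, and only small pre-B barcodes had to hold Rag1, Arl5c or Fcrla. Differences in genes that accompany any of these are not independent of that choice. Of 10161 genes, 5758 (56.7%) were called, 2932 higher (28.9%) and 2826 lower (27.8%) in small pre-B. The median log2 fold change of all genes was 0.07. Depth per cell differed strongly between these classes, and with every cell thinned to 1000 UMIs 3107 genes were called. Neutrophil markers summed to 28849, 32700.4 and 32581 CPM in small pre-B, against 47882, 40894 and 40109.7 CPM in cycling pre-B, and 5612 of 9126 genes were called without mixed barcodes.

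All 10 receptor-chain genes were called, 7 higher and 3 lower, with a median log2 fold change of 1.82. Igll1 had 27.6, 48.5 and 95.3 CPM in small pre-B, against 216, 223 and 396 CPM in cycling pre-B in libraries 1, 2 and 3. Its log2 fold change was -2.43 ± 0.17 (SE, adjusted p = 3.2e-06). Vpreb1 had 54, 89.3 and 145 CPM in small pre-B, against 227, 247 and 287 CPM in cycling pre-B, and a log2 fold change of -1.56 ± 0.18 (adjusted p = 7.5e-05). Vpreb2 fell with them, with a log2 fold change of -1.56 ± 0.27, but its reads cannot be told from those of Vpreb1 with certainty, since 248 of 258 aligned bases at the 3′ ends are identical. Leaving out library 3 moved its value to -2.28, and after thinning it was -0.81 and missed the threshold (adjusted p = 0.077). The ranges of the classes lay apart for Igll1 and Vpreb1 and met for Vpreb2, whose highest small pre-B value (26.2 CPM, library 3) just passed its lowest cycling value (25.6 CPM, library 2). Vpreb3 moved the other way, with 3599.5, 3838 and 4031 CPM in small pre-B, against 1295, 1478 and 1082 CPM in cycling pre-B and a log2 fold change of 1.46 ± 0.11 (adjusted p = 5.2e-06). Ighm had 5605, 3578 and 4847 CPM in small pre-B, against 1794, 1272 and 1279.5 CPM in cycling pre-B, a log2 fold change of 1.56 ± 0.09. Both genes were higher in every library.

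Light chains were far higher. Iglc3 had 408, 577 and 1004 CPM in small pre-B, against 12.3, 19.8 and 10.3 CPM in cycling pre-B, with a log2 fold change of 5.41 ± 0.33 (adjusted p = 1.6e-06), 4.80 without library 3 and 6.18 without mixed barcodes. Igkc had 5573, 31709 and 8338 CPM in small pre-B, against 3756, 3795 and 708 CPM in cycling pre-B, with library 2 standing apart in small pre-B. Jchain, which plasma cells express, stood at 0, 2294 and 263 CPM in small pre-B in libraries 1, 2 and 3, and at 0, 1.69 and 0 CPM without mixed barcodes. Without mixed barcodes Igkc had 6105, 5813 and 6973 CPM in small pre-B, against 1068, 915 and 986 CPM in cycling pre-B, and the 3 libraries lay close together. The log2 fold change was 2.33 ± 0.49 with all barcodes (adjusted p = 0.0029) and 2.54 without the mixed ones (adjusted p = 1.1e-11), and without library 3 it was 1.67 (adjusted p = 0.054) and without library 1 3.09. Iglc1 had 575, 922 and 1487 CPM in small pre-B, against 25.7, 774 and 17.6 CPM in cycling pre-B, where library 2 stood apart. Its log2 fold change was 3.74 with all barcodes, 3.03, 5.35 and 2.07 without libraries 1, 2 and 3, and 7.36 without mixed barcodes. The adjusted p without library 1 and without library 3 was 0.1 and 0.13, and the call was also lost with at least 1000 genes per barcode (2.51, adjusted p = 0.054).

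**Figure D3:**
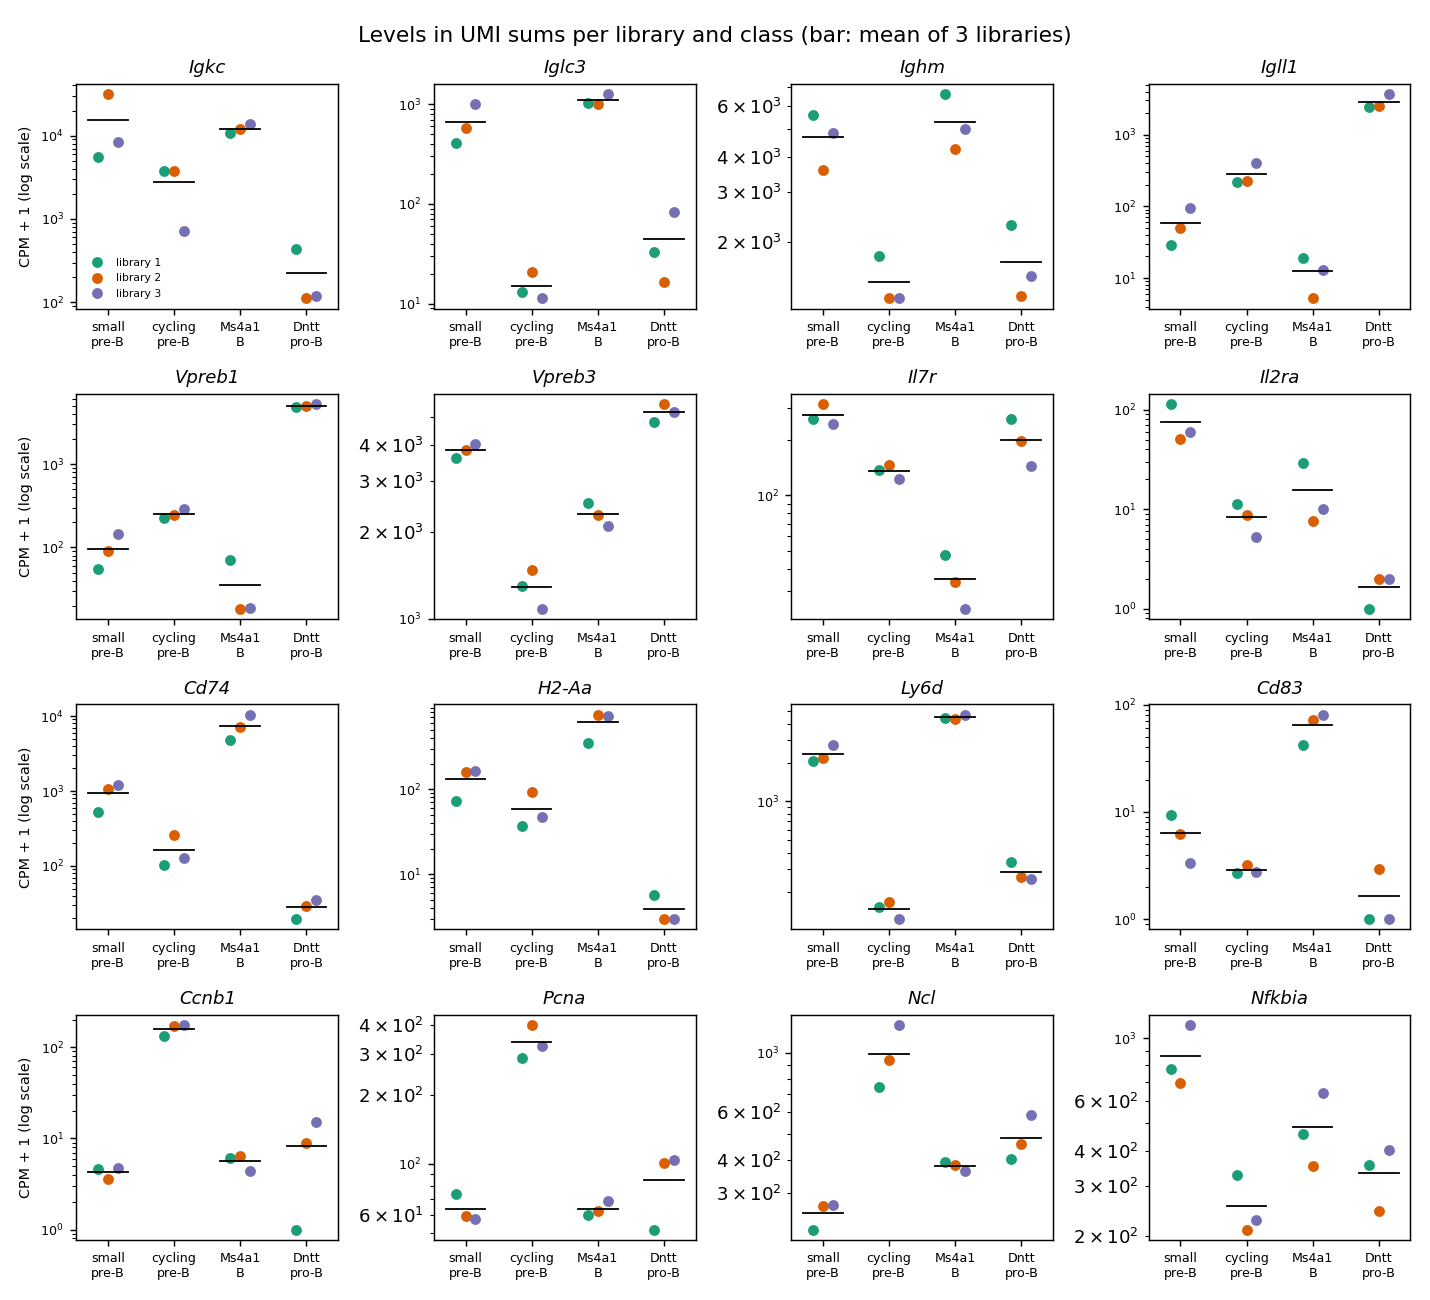
Level of 16 genes in CPM + 1 (log scale) in sums of small pre-B, cycling pre-B, Ms4a1+ B and Dntt+ pro-B barcodes, 1 point per library and a bar at the mean of 3 libraries. Igll1 and Vpreb1 lie highest in Dntt+ pro-B, Il2ra highest in small pre-B, Cd74 and Cd83 highest in Ms4a1+ B, and the Igkc point of library 2 stands apart at 31709 CPM in small pre-B.

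Recombination and interleukin 7 genes went both ways, in shares not far from those of all genes, of which 28.9% were higher and 27.8% lower. Of 11 V(D)J recombination genes, 4 were higher and 2 lower. Xrcc6, which encodes the Ku70 end-joining protein, had 360.2, 368 and 374 CPM in small pre-B, against 134, 128 and 120.3 CPM in cycling pre-B, a log2 fold change of 1.41 ± 0.11 (adjusted p = 7.1e-06). Dclre1c, the hairpin-opening nuclease Artemis, rose by a log2 fold change of 1.54, while Hmgb1, a DNA-bending cofactor of the recombinase, changed by -2.02 and the Ku80 gene Xrcc5 by -1.46. Rag2, the partner of Rag1, had 24, 14.3 and 20.5 CPM in small pre-B, against 11.5, 7.27 and 5.20 CPM in cycling pre-B, and a log2 fold change of 1.25 ± 0.26, but 0.18 after thinning (adjusted p = 0.7). Of 13 interleukin 7 signalling genes tested, 5 were higher and 4 lower. Il7r, the receptor's α chain (chr15:9505788-9530176, minus strand), had 258, 312 and 244 CPM in small pre-B, against 137, 146 and 121 CPM in cycling pre-B, a log2 fold change of 0.89 ± 0.11 (adjusted p = 0.0001). A UMI of Il7r was present in 42.8% ± 6.31 of small pre-B and 69.2% ± 5.19 of cycling barcodes, but in 24.0% ± 3.71 and 16.6% ± 2.38 once thinned (neutrophils 0.569% ± 0.193, and 0.0508% ± 0.0190 thinned). The common γ chain Il2rg rose by 1.98 and the kinase gene Pim1 by 1.64. The growth genes fell, with log2 fold changes of -1.71 for Ccnd2 (cyclin D2), -0.92 for Ccnd3 (cyclin D3) and -1.36 for Myc. For Myc the value was -1.96 without library 1 and -0.52 after thinning (adjusted p = 0.27).

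Signalling and transcription factor genes were mostly higher. Of 24 B lineage transcription factor genes, 20 were higher and 1 lower, with a median log2 fold change of 1.15. Foxo1, an activator of the Rag genes, had 191, 106 and 125 CPM in small pre-B, against 36.9, 23.2 and 20.2 CPM in cycling pre-B, a log2 fold change of 2.27 ± 0.13 (adjusted p = 1.2e-06). Ikzf3, the Ikaros family member Aiolos, rose by 2.24, and the gene that fell was Lef1, at -0.83. Of 16 B receptor signalling genes, 12 were higher and 0 lower, among them the kinase gene Syk at 1.67. Of 13 NF-kB pathway genes, 12 were higher and 0 lower, with a median of 2.20. The survival kinase gene Pim2 rose by 2.77 and the apoptosis inhibitor gene Birc3 by 2.63. Of 16 immediate early genes tested, 15 were higher and 0 lower, with the AP-1 gene Jund at 2.00 and Cd69 at 2.03.

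Surface genes of later B cells were also higher in small pre-B. All 9 mature B surface genes tested rose, with a median log2 fold change of 2.55. Ly6d had 2062, 2191 and 2721 CPM in small pre-B, against 151, 165 and 121 CPM in cycling pre-B, a log2 fold change of 3.87 ± 0.16 (adjusted p = 2.7e-07). The co-stimulatory receptor gene Cd40 rose by 4.05 and the lymphotoxin β gene Ltb by 3.69, which became 4.86 without mixed barcodes. Of 11 MHC class II presentation genes, 7 were higher and 0 lower. Cd74, the invariant chain, had 528, 1048 and 1216 CPM in small pre-B, against 101, 256 and 127 CPM in cycling pre-B, a log2 fold change of 2.43 ± 0.21 (adjusted p = 1.2e-05). Homing and adhesion genes were higher in a share near that of all genes (28.9%), with 4 of 13 tested higher and 1 lower. Without mixed barcodes 5 were higher and 3 lower. S1pr1, a receptor used to leave the marrow, was at 2.72. Outside the lists, large increases were those of Rgs16, a regulator of G protein signalling, at 4.89, Reln, the secreted glycoprotein reelin, at 4.87, the IgM receptor gene Fcmr at 4.29 and the collagen gene Col5a3 at 4.55. Reln had 48, 40.7 and 94.8 CPM in small pre-B, against 1.12, 2.30 and 1.93 CPM in cycling pre-B, and the ranges did not overlap. After thinning the log2 fold changes were 3.66 for Rgs16, 3.64 for Reln and 3.81 for Col5a3.

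Growth genes fell together. The rule barred 4 cycle genes, so the fall of the cycle lists is a description: all 16 DNA synthesis genes and all 16 mitosis genes were lower, with medians of -3.30 and -5.19. Rrm2, a subunit of ribonucleotide reductase, had 8.40, 6.93 and 8.87 CPM in small pre-B, against 286, 359 and 343 CPM in cycling pre-B. All 16 nucleolus and ribosome assembly genes were lower too, with a median of -1.49, among them Nop58, a core protein of small nucleolar particles, at -2.35. Of 16 glycolysis genes 12 were lower and none higher, with lactate dehydrogenase (Ldha) at -1.70 and Gapdh at -1.67. Of 16 respiratory chain genes 13 were lower and none higher, with a median of -0.61. Of 15 quiescence genes 11 were higher and 2 lower. Btg1, an antiproliferative gene, had 2404, 1310.1 and 1527 CPM in small pre-B, against 405, 191 and 177 CPM in cycling pre-B, a log2 fold change of 2.69 ± 0.13 (adjusted p = 4.7e-07), and Cdkn2c, the p18 inhibitor of cyclin-dependent kinases, was at -2.74. Of 11 apoptosis genes tested 7 were higher and 2 lower, with the death-promoting Bmf at 3.47 and the protective Bcl2l1 at 1.58. Of 10 p53 and DNA damage genes tested 4 were higher and 1 lower, with Trp53inp1 at 2.28.

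**Figure D4:**
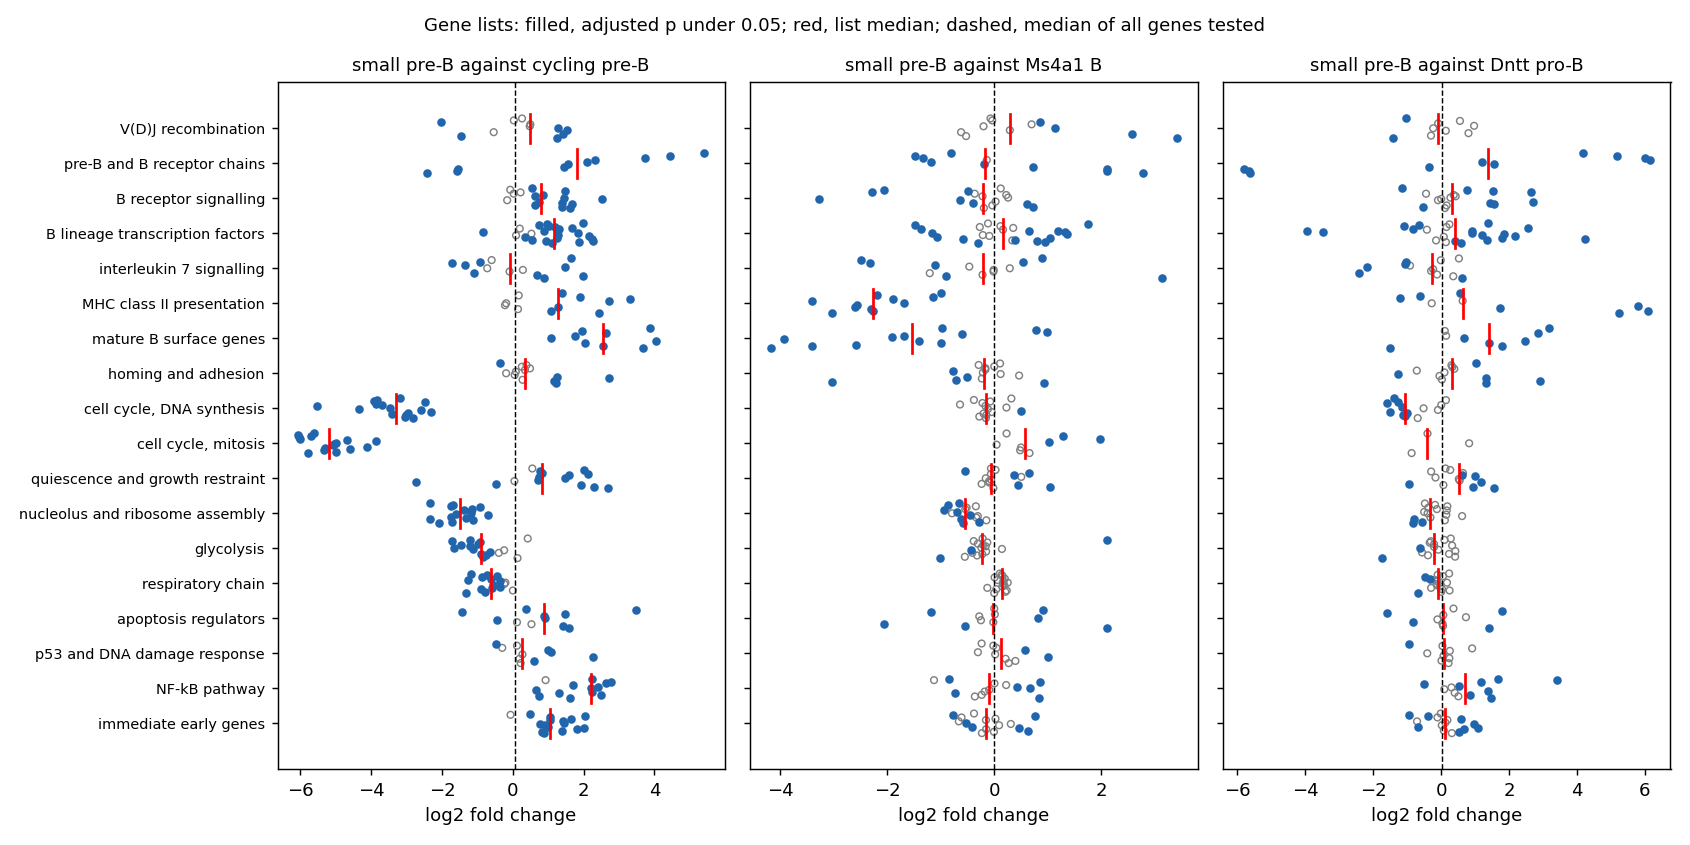
Log2 fold change of each gene of 18 lists for small pre-B against cycling pre-B, Ms4a1+ B and Dntt+ pro-B barcodes. Filled points have an adjusted p under 0.05, open points do not, red bars are list medians and the dashed line is the median of all genes tested. The cycle lists lie far to the left against cycling pre-B, with medians of -3.30 and -5.19, and MHC class II genes lie to the left against Ms4a1+ B, with a median of -2.26.

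Against Ms4a1+ B barcodes, which had nearly the same depth, small pre-B cells had more RNA of the interleukin 7 receptor and some recombination genes and less of antigen presentation and mature B genes. Of 9197 genes, 1446 (15.7%) were called, 752 higher (8.18%) and 694 lower (7.55%) in small pre-B, and the median log2 fold change of all genes was 0.00. DESeq2 called 538, and edgeR called 1445, 996 and 880 without libraries 1, 2 and 3. The members' sums enter all comparisons, so these are not independent of one another. Small pre-B barcodes were also chosen for a UMI of Rag1, Arl5c or Fcrla, and Ms4a1+ B barcodes were not. An Arl5c UMI was in 88.6% ± 3.32 of small pre-B and 45.7% ± 3.73 of Ms4a1+ B barcodes (SD, n = 3). Higher RNA of other precursor genes is thus not independent of the rule. Neutrophil markers summed to 28849, 32700.4 and 32581 CPM in small pre-B, against 12457, 48298 and 41942 CPM in Ms4a1+ B, and without mixed barcodes 1796 of 8455 genes (21.2%) were called.

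Il7r had 258, 312 and 244 CPM in small pre-B, against 46.2, 32.9 and 23.2 CPM in Ms4a1+ B, a log2 fold change of 3.14 ± 0.15 (SE, adjusted p = 2.5e-07). Il2ra, the CD25 chain that small pre-B cells display, had 113, 50.3 and 58.4 CPM in small pre-B, against 28.2, 6.58 and 9.0 CPM in Ms4a1+ B, a log2 fold change of 2.56 ± 0.20. Neither gene's values overlapped between the classes. Of 11 recombination genes 4 were higher and none lower. Rag2 rose by 3.41 ± 0.40 and Xrcc6 by 2.58 ± 0.10, with Xrcc6 at 360.2, 368 and 374 CPM in small pre-B, against 66.7, 58.7 and 59.6 CPM in Ms4a1+ B. Surrogate light-chain genes were low in both classes: Igll1 had 27.6, 48.5 and 95.3 CPM in small pre-B, against 17.9, 4.19 and 12 CPM in Ms4a1+ B, a log2 fold change of 2.78 ± 0.31 (adjusted p = 0.00011). Vpreb1 changed by 2.10 ± 0.40, with 69.2, 17.4 and 17.6 CPM in Ms4a1+ B, of which library 1 lies above its small pre-B value there. Its value was 2.70 without library 1 and 1.33 without library 3. Vpreb3 rose by 0.72. Of 13 interleukin 7 genes tested 3 were higher and 4 lower.

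Light chains were lower than in Ms4a1+ B cells. Iglc1 had 575, 922 and 1487 CPM in small pre-B, against 2079.6, 2433 and 2483 CPM in Ms4a1+ B, a log2 fold change of -1.34 ± 0.14, and Iglc2 changed by -1.49 ± 0.17. Igkc did not pass with all barcodes, at -0.14 ± 0.35 (adjusted p = 0.85), with 5573, 31709 and 8338 CPM in small pre-B, against 10785, 11985 and 13723 CPM in Ms4a1+ B, so that library 2 alone was higher. Without library 2 it was -0.87. Without mixed barcodes it had 6105, 5813 and 6973 CPM in small pre-B, against 11948, 14117 and 16007 CPM in Ms4a1+ B, and fell by a log2 fold change of -1.21 (adjusted p = 3.2e-11). Ighm differed little, at -0.19 (adjusted p = 0.031), and missed the threshold without library 1 or library 2 (adjusted p = 0.054 and 0.052) and with DESeq2 (adjusted p = 0.74).

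All 11 MHC class II presentation genes were lower, with a median of -2.26. Cd74 had 528, 1048 and 1216 CPM in small pre-B, against 4795, 7175 and 10456 CPM in Ms4a1+ B, a log2 fold change of -3.04 ± 0.09 (adjusted p = 1.3e-08), and the ranges of the classes lay apart. H2-DMb2, a chain of the peptide loader, fell by 3.40. Of 12 mature B surface genes 10 were lower and 2 higher. The CD23 gene Fcer2a fell by 4.17, and the activation gene Cd83 had 8.40, 5.20 and 2.34 CPM in small pre-B, against 41, 70.6 and 79.7 CPM in Ms4a1+ B, a log2 fold change of -3.93 ± 0.32 that was -3.30 without library 3. Cd38 rose by 0.98. Outside the lists, Il4i1, an amino acid oxidase of activated B cells, fell by 4.83, a log2 fold change that was -5.57 without library 2.

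Signalling genes split. Of 16 B receptor signalling genes 6 were lower and 2 higher. The adaptor gene Bank1 fell by 3.27 and the inhibitory receptor gene Cd22 was at -2.28, while Syk rose by 0.61 and the linker gene Blnk by 0.72. Of 23 transcription factor genes 9 were higher and 6 lower. Myb, a factor of precursor cells, had 705, 341 and 297 CPM in small pre-B, against 287, 86.8 and 75.9 CPM in Ms4a1+ B, a log2 fold change of 1.74 ± 0.13 (adjusted p = 5.1e-06). Bach2 rose by 1.35, while Bcl11a changed by -1.47 and Mef2c by -1.36. Of 11 apoptosis genes tested 3 were higher and 3 lower, with a median of -0.02. Bcl2l1, which encodes Bcl-xL, had 109, 75 and 104 CPM in small pre-B, against 30.8, 19.2 and 20.2 CPM in Ms4a1+ B (log2 fold change 2.10 ± 0.15). Bcl2 had 8.40, 4.77 and 6.07 CPM in small pre-B, against 25.6, 32.9 and 35.6 CPM in Ms4a1+ B (log2 fold change -2.49 ± 0.27). Ccnd2 fell by 2.31. Of 15 nucleolus genes 8 were lower and none higher, and of 16 respiratory chain genes none was called in either direction. Of 13 NF-kB genes 4 were higher and 2 lower, with the inhibitor gene Nfkbia at 0.83 and Rel at -0.73. The chemokine receptor gene Cxcr4, which holds cells in the marrow, rose by 0.94. Outside the lists Prg3, known as an eosinophil granule protein gene, had 68.4, 93.6 and 71.5 CPM in small pre-B, against 15.4, 4.79 and 6.86 CPM in Ms4a1+ B, a log2 fold change of 3.46 ± 0.26 (adjusted p = 6.4e-06). Slc12a3, a sodium and chloride cotransporter, had 256, 155 and 227 CPM in small pre-B, against 76.9, 27.5 and 25.7 CPM in Ms4a1+ B, a log2 fold change of 2.54 ± 0.19, and Uchl1, a ubiquitin hydrolase, rose by 2.55.

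Against Dntt+ pro-B barcodes, small pre-B cells had far less surrogate light-chain RNA and more of light chains and of several MHC class II genes. Of 7781 genes, 1884 (24.2%) were called, 921 higher (11.8%) and 963 lower (12.4%) in small pre-B, with a median log2 fold change of all genes of 0.02. DESeq2 called 1072 and thinned cells gave 1001. Neutrophil markers summed to 28849, 32700.4 and 32581 CPM in small pre-B, against 23086, 26352 and 20501 CPM in Dntt+ pro-B, and without mixed barcodes 2446 of 7282 genes (33.6%) were called. Igll1 had 27.6, 48.5 and 95.3 CPM in small pre-B, against 2463, 2536 and 3712 CPM in Dntt+ pro-B, a log2 fold change of -5.62 ± 0.18 (SE, adjusted p = 1e-07). Vpreb1 had 54, 89.3 and 145 CPM in small pre-B, against 4824, 4988 and 5223 CPM in Dntt+ pro-B, a log2 fold change of -5.66 ± 0.20, and Vpreb2 fell by 5.81, or -6.83 without library 3. Vpreb3 was also lower here, at -0.35 ± 0.05. Light chains rose. Iglc1 had 575, 922 and 1487 CPM in small pre-B, against 18.5, 6.82 and 31.9 CPM in Dntt+ pro-B, and a log2 fold change of 6.0 ± 0.25 that was 6.64 without library 3. Igkc changed by 6.15 with all barcodes, 5.15 without mixed ones, and 7.26 and 5.06 without libraries 1 and 2. Ighm rose by 1.56 ± 0.07.

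Cd74 had 528, 1048 and 1216 CPM in small pre-B, against 18.5, 28.3 and 33.9 CPM in Dntt+ pro-B, a log2 fold change of 5.24 ± 0.13 (adjusted p = 2.9e-08). Of 9 MHC class II genes tested 5 were higher and 2 lower. Among the higher ones H2-Aa summed to 767 UMIs in small pre-B and 5 in Dntt+ pro-B, and the lower ones were H2-Oa, which encodes a chain that restrains peptide loading, at -1.20, and its partner H2-Ob at -0.64. H2-Oa missed the threshold without library 2 (adjusted p = 0.057) and after thinning, and H2-Ob with DESeq2 (adjusted p = 0.053). Il2ra had 113, 50.3 and 58.4 CPM in small pre-B, against 0, 0.975 and 0.998 CPM in Dntt+ pro-B, where it amounted to 2 UMIs in all, so no fold is given. Polm, a polymerase of the same family as Dntt that acts in light-chain joining, had 221, 142 and 138 CPM in small pre-B, against 9.24, 4.87 and 3.99 CPM in Dntt+ pro-B, a log2 fold change of 4.97 ± 0.23 (adjusted p = 5.1e-07). Rag2 fell by 1.43, and Il7r was higher by 0.63 ± 0.15 (adjusted p = 0.011), a call that was lost without library 2 (adjusted p = 0.067). Of 23 transcription factor genes 12 were higher and 5 lower. Ikzf3 rose by 4.23, while Erg, a factor of early progenitors, fell by 3.95 and Lef1 was at -3.48. Lef1 had 36, 35.1 and 36.9 CPM in small pre-B, against 545, 402 and 397 CPM in Dntt+ pro-B. Of 12 NF-kB genes tested 7 were higher and 1 lower, with Pim2 at 3.41, and without mixed barcodes 8 of 11 were higher and 0 lower. Of 13 DNA synthesis genes tested 8 were lower and none higher, although both classes lack the barred cycle genes. Ly6d rose by 3.17 and Ltb fell by 1.49. Of 9 recombination genes tested 0 were higher and 2 lower, and without mixed barcodes 1 was higher and 3 lower. Of 12 interleukin 7 genes tested 1 was higher and 4 lower, with Jak3, the kinase bound to the common γ chain, at -2.43. Cd22 rose by 2.64 and the chemokine receptor gene Ccr7 by 2.92. Cd2, an adhesion receptor used as a marker of pre-B cells, had 125, 158 and 191 CPM in small pre-B, against 9.24, 8.77 and 7.99 CPM in Dntt+ pro-B, a log2 fold change of 4.39 ± 0.21. Arpp21, a cAMP-regulated phosphoprotein gene, had 1.20, 0.867 and 4.20 CPM in small pre-B, against 374, 285 and 369 CPM in Dntt+ pro-B. Its log2 fold change was -7.06 ± 0.25, or -8.08 without library 3.

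The 86 barcodes that met the rule except for having no Rag1, Arl5c or Fcrla UMI numbered 21, 27 and 38 by library. Of 5911 genes, 425 (7.19%) were called, 197 higher (3.33%) and 228 lower (3.86%), between the small pre-B sums and theirs, but 49 of 5227 (0.937%) without mixed barcodes and 232, 760 and 70 without libraries 1, 2 and 3. Il7r had 258, 312 and 244 CPM in small pre-B, against 59.5, 27.4 and 17.2 CPM in these barcodes. Its log2 fold change was 2.95 ± 0.39 with all barcodes (adjusted p = 0.0044) and 1.94 without mixed ones (adjusted p = 0.029), 3.57 without library 1 and 4.84 with at least 1000 genes per barcode. After thinning it was 1.91 and missed the threshold (adjusted p = 0.056). Vpreb3 rose by 2.02, and by 1.05 without mixed barcodes. The neutrophil markers summed to 28849, 32700.4 and 32581 CPM in small pre-B, against 46405, 136096 and 60237 CPM in these barcodes, and to 4317, 2269 and 2388 CPM against 2718, 3208 and 1914 CPM without mixed ones. An Ebf1 UMI was in 79.8% ± 13.5 of these barcodes, against 99.6% ± 0.140 of small pre-B (SD, n = 3). Leaving out mixed barcodes and those with 0 UMIs of Ebf1 kept 18, 18 and 26 of them by library. Which of these filters changed the calls was not tested. With Scrublet doublets removed 400 genes were called.

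Members were also split at the median of Igkc per 10000 UMIs of their library, 979 high and 978 low, with median depths of 2179, 2513 and 2078 UMIs in high and 2049, 2511 and 1933 UMIs in low members. Cells with more Igkc had less surrogate light-chain RNA and more RNA of Cd74 and of some receptor signalling and NF-kB genes. Of 7486 genes, 581 (7.76%) were called, 160 higher (2.14%) and 421 lower (5.62%) in high Igkc members. Of the 88 mixed members 11 were high and 77 low. Neutrophil markers summed to 5763, 3125 and 2321 CPM in high members, against 47484, 57623 and 56789.9 CPM in low members, and to 4501, 2315 and 2357 CPM against 4146, 2225 and 2419 CPM without mixed barcodes. Ngp, a neutrophil granule gene, fell by 4.60 with all members and stood at 0.0086 without mixed ones, and the bone collagen gene Col1a1 at -4.47 and -0.042. Without library 2 Col1a1 stood at -3.85 with all members. Without mixed barcodes 257 of 6990 genes (3.68%) were called, 142 higher (2.03%) and 115 lower (1.65%). In each setting that changed the barcodes the split was made anew at the median of the members left, so high and low groups may differ in members. Of the 160 higher genes 113 were called again without mixed barcodes, against 80 of the 421 lower genes, of which 238 were still tested. Of 15 glycolysis genes 8 were lower with all members, and without mixed ones 2 of 13.

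Of 8 receptor-chain genes tested besides Igkc, 2 were higher and 3 lower, with a median of 0.23, and without mixed barcodes 2 were higher and 4 lower, with a median of -0.21. Igll1 had 8.06, 22.7 and 18.9 CPM in high Igkc members, against 43.4, 70.3 and 156 CPM in low ones, a log2 fold change of -2.36 ± 0.27 (SE, adjusted p = 0.00019), and -2.64 without mixed barcodes, -2.98 without library 2 and -1.72 without library 3. Vpreb1 had 18.8, 32.2 and 42 CPM in high members, against 82.5, 137 and 227 CPM in low ones, a log2 fold change of -2.25 ± 0.16 and -2.47 without mixed barcodes. Ighm rose by 0.43 and Vpreb3 by 0.38. For none of these 4 genes did the sign turn under any alternative tried. Iglc2 did not pass with all members, at 0.29 (adjusted p = 0.61), and fell by a log2 fold change of -0.42 without mixed barcodes (adjusted p = 0.0003), while without library 3 it was 0.80 (adjusted p = 0.0094), so its direction turned with the setting.

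Cd74 had 750.0, 1368 and 1549.9 CPM in high members, against 349, 779 and 949 CPM in low ones, a log2 fold change of 0.85 ± 0.09 (adjusted p = 6.7e-05), higher in every library although the ranges over libraries overlap. Of 10 MHC class II genes tested 1 was higher and none lower, and 2 of 9 were higher without mixed barcodes. Of 16 B receptor signalling genes 4 were higher and none lower, among them Cd72, a co-receptor, at 0.98 ± 0.08 (adjusted p = 8e-06), with 959.6, 754 and 1041 CPM in high and 490.4, 429.6 and 471 CPM in low members, and Ptpn6, the phosphatase SHP-1, at 0.80. Of 12 NF-kB pathway genes tested 4 were higher and none lower, with a median of 0.45, and 3 without mixed barcodes. Nfkb2 had 86, 54 and 83 CPM in high members, against 23.9, 28.7 and 48.8 CPM in low ones, a log2 fold change of 1.01 ± 0.21 (adjusted p = 0.011), and the inhibitor gene Nfkbie changed by 0.94 ± 0.17. Of 9 mature B surface genes 5 were higher and none lower, among them the BAFF receptor gene Tnfrsf13c at 0.72. The call of Ptpn6 was lost without library 3 (adjusted p = 0.053). Lef1 fell by 1.02, a call also lost without library 3 (adjusted p = 0.13), and Bcl11a rose by 0.91. With all members no recombination, nucleolus or respiratory chain gene was called either way, and without mixed barcodes the recombination gene Xrcc6 was called lower, at -0.27 (adjusted p = 0.0497). Il7r did not pass, at 0.33 ± 0.10 (adjusted p = 0.072). Without library 1 its value was 0.43 (adjusted p = 0.031). DESeq2 called 175 genes and thinned cells 149. DESeq2 left Nfkb2, Nfkbie, Ptpn6, Tnfrsf13c, Lef1 and Bcl11a uncalled (adjusted p = 0.21, 0.12, 0.091, 0.09, 0.66 and 0.14), and thinning left Nfkb2, Tnfrsf13c and Bcl11a uncalled. The calls of Cd74 and Cd72 held under both. In edgeR without the replicate block, however, Cd74 was not called (adjusted p = 0.64). Igll1, Ighm, Vpreb3, Nfkb2 and Nfkbie were not called either (adjusted p = 0.065, 0.55, 0.37, 0.19 and 0.21). That setting called 1 gene higher and 128 lower.

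**Figure D5:**
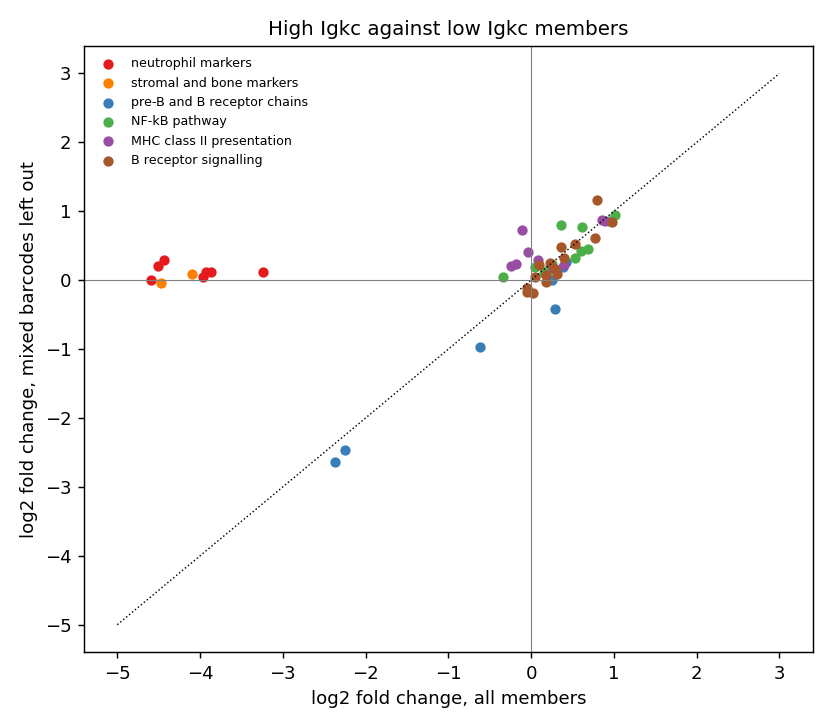
Log2 fold change of list genes between high and low Igkc members with all members (horizontal) and with mixed barcodes left out (vertical), 1 point per gene, with the dotted line marking equal values. Neutrophil and stromal genes lie far left of the line, with Ngp at -4.60 and 0.0086, while Igll1 and Vpreb1 stay near it, with Igll1 at -2.36 and -2.64.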

How the data were processed

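Droplet single-cell libraries (10x 3′ v3) of 3 pools of mouse discs were used, as whole-number UMI counts per gene and barcode that the authors deposited as matrices. Per the submitters' processing notes Cell Ranger 3.0.2, Seurat 4 and the mm10 build were used, while the file headers name software versions 3.0.1, 6.0.0 and 6.0.0. The aligner settings are not given in the sources used here, and deposited counts were taken as they stand. The matrices held 64695292, 145925353 and 137188648 UMIs in 7430, 11767 and 11032 barcodes, and the 30406 genes common to all were used. Between pairs of libraries 16, 22 and 34 kept barcode sequences recurred, none of them a member.

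Kept barcodes had 500 or more genes and no more than 15% mitochondrial UMIs and were classed by the rule (Python 3.11.15, numpy 2.4.6, scipy 1.17.1, pandas 2.3.3). Neutrophil barcodes had UMIs of at least 3 of 5 neutrophil genes and none of Cd79a and Cd79b. Counts were summed per library and class and compared with edgeR 4.0.16 (R 4.3.3, TMM scaling, filterByExpr, quasi-likelihood test) with the library as a block, since both classes of a comparison come from the same pool, and adjusted over all genes tested. Levels are plain CPM of a sum, and fold changes are edgeR's. On counts simulated for the cycling pre-B comparison, with 200 of 10161 genes changed, the test recovered 39.4% of changes of 1 on the log2 scale and 96.9% of changes of 2. The simulation gave all genes the same dispersion and let libraries differ only in depth, so these shares need not hold for the real counts. The other comparisons were not simulated. The members, gene lists, motifs and tests were chosen with earlier results of these data known. Named genes are part of those given by a rule: in each comparison the 12 largest and smallest called log2 fold changes with at least 50 CPM in the higher class and the same direction in 3 of 3 libraries, up to 2 called genes each way of each of 18 lists, and 14 tracked genes. Values of H2-Aa, Jchain and Ebf1, of Xrcc6 in the Igkc split and of light chains per barcode are further descriptions, chosen after their values were seen. Alternatives were DESeq2 1.42.0 (its test and its size factors), no filter on low counts, no block, each library left out, Scrublet doublets removed (scanpy 1.11.5), other limits on genes and mitochondrial share, cells thinned to 1000 UMIs (21 members were too shallow), and, added after seeing the data, mixed barcodes left out. Sequences came from RefSeq tables of GRCm38.p6, the assembly that mm10 names.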

Additional observations from a re-analysis of the deposited data

How the results depend on the processing

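Of 1676 values of 120 gene results under the alternatives, 1602 kept their direction and their side of the threshold, 57 kept the direction but missed the threshold, 7 passed where the main value did not, and 10 turned. All 10 that turned are Igkc against Ms4a1+ B and Ngp and Iglc2 in the Igkc split. Igkc against Ms4a1+ B stood at 0.34 without the replicate block, -0.87 to 0.30 with 1 library left out, 0.23 without library 3 and 0.010 with at most 5% mitochondrial UMIs. Ngp stood at 0.011 with Scrublet doublets removed and 0.0086 without mixed barcodes. Iglc2 stood at -0.34 with Scrublet doublets removed, -0.42 without mixed barcodes, -0.62 after thinning and -0.22 to 0.80 with 1 library left out. Without the replicate block the numbers of called genes were 3726 against cycling pre-B, 217 against Ms4a1+ B, 835 against Dntt+ pro-B, 224 against the barcodes without Rag1, Arl5c and Fcrla, and 129 in the Igkc split, where the block pairs classes of the same pool. Thinned cells gave 3107, 1001, 66 and 149 called genes against cycling pre-B, against Dntt+ pro-B, against the barcodes without the 3 genes and in the Igkc split, and DESeq2 gave 538, 1072 and 175 against Ms4a1+ B, against Dntt+ pro-B and in the Igkc split. Against the barcodes without the 3 genes, no filter on low counts gave 1008, at most 5% mitochondrial UMIs 280 and mixed barcodes left out 49. In the Igkc split Scrublet removal gave 384 and mixed barcodes left out 257. Leaving out each library in turn gave 4188 to 5548 called genes against cycling pre-B, 880 to 1445 against Ms4a1+ B, 1296 to 1805 against Dntt+ pro-B, 70 to 760 against the barcodes without the 3 genes, 361 to 525 in the Igkc split and a member share of 6.20% to 7.71%. With at least 1000 genes per barcode the member share was 5.15%. The cause of these shifts was not tested. Small pre-B cells are shallow, so genes of a few UMIs per library rest on few cells, and 3 pools limit every test.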
